A study of Mus musculus with 31 samples.

Results

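SnoRNA host genes carry small nucleolar RNAs (snoRNAs) in their introns, and many of their spliced transcripts are known substrates of nonsense-mediated mRNA decay (NMD). Of the 8 hosts named for this description (*Zfas1*, *Gas5*, *Snhg1*, *Snhg3*, *Snhg5*, *Snhg6*, *Snhg8* and *Snhg12*), 1 had a row in the tables of all 31 mice. That gene was *Zfas1*, 1 of 31172 gene symbols, and the other 7 were not analysed here. It was chosen by its symbol and by the presence of a row, with earlier results of these data known, so that the comparisons of its level are no independent support for a role of NMD.

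Livers came from *hFIX-R29X* mice aged 8 to 14 weeks, which lack mouse factor IX and carry a human factor IX minigene with the nonsense mutation R29X under the human *transthyretin* promoter, active mainly in hepatocytes. All mice, controls included, carry this background. They received 6 subcutaneous doses, 1 every 5 days, and were killed 48 h after the last. The groups were DPBS, a buffered saline (n = 11, 6 female and 5 male), Control-GalNAc-ASO at 15 mg/kg (n = 4, 2 female and 2 male) or 20 mg/kg (n = 6, 3 female and 3 male), and *Upf3b*-GalNAc-ASO at 10 mg/kg (n = 5, 2 female and 3 male) or 20 mg/kg (n = 5, 2 female and 3 male). An antisense oligonucleotide (ASO) of this kind directs RNase H1 to cut its target RNA, and the GalNAc sugar cluster carries it into hepatocytes through the asialoglycoprotein receptor. The lower dose of *Upf3b*-GalNAc-ASO was compared with a control given at another dose, so that dose and target cannot be fully separated there.

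NMD removes transcripts whose stop codon lies well upstream of an exon junction, because the protein complex left at that junction recruits the UPF proteins. UPF3B bridges the junction complex and UPF2, and UPF1 is the helicase that carries the decay forward. A snoRNA host gene is transcribed and spliced, and the snoRNAs are cut from its introns and kept. In many noncoding hosts the spliced RNA has only short reading frames, is translated briefly and is decayed. *Zfas1* is a noncoding RNA that hosts snoRNAs of the C/D box class. Such snoRNAs guide 2′-O-methylation of ribosomal RNA.

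In GENCODE M21 (GRCm38), *Zfas1* spans chr2:167062934-167065862 on the plus strand, with 5 transcripts. The fully spliced form has 5 exons and 738 bases, and the other 4 are annotated as retained-intron transcripts. The first 82 bases of the gene overlap the 5′ end of *Znfx1*, a protein-coding gene on the opposite strand. The 300 bases of the spliced transcript below are shown because they hold a short reading frame whose stop lies upstream of exon junctions. They begin at base 288, where a shorter annotated transcript starts (chr2:167063221), and end at base 587 (chr2:167065711). Capitals mark the first reading frame from an ATG in that stretch.
Zfas1, spliced transcript, bases 288 to 587: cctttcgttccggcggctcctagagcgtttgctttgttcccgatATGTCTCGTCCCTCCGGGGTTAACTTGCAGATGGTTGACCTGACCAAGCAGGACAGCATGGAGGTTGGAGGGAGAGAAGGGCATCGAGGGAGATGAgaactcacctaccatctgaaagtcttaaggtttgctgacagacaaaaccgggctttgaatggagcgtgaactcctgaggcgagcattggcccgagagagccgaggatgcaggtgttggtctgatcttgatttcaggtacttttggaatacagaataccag

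The capitals run from base 332 to base 427 of the transcript and hold 31 codons before the stop. Exon junctions follow bases 364, 456, 515 and 562, so that the reading frame crosses the first junction and 3 junctions lie downstream of its stop codon. The last of them is 135 bases beyond the stop. It holds 10 ATG codons with a stop in frame, some sharing a stop and 2 of them lying upstream of base 288. The longest frame, 79 codons from base 486, has no junction downstream of its stop. Whether any of these frames is translated in liver was not measured.

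The 3′ end of the transcript is shown because the labels describe libraries made from 3′ ends. Its last 60 bases (chr2:167065803-167065862) hold the polyadenylation motif AATAAA at both places in capitals. The motif was searched on the transcribed strand only, and 35.4% of 88260 annotated transcript ends of the same length hold it.
Zfas1, spliced transcript, last 60 bases: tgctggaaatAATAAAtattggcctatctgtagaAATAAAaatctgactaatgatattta

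The introns of the spliced transcript hold 3 annotated snoRNA genes, shown because they are what makes *Zfas1* a host. Capitals mark the C box (TGATGA) and the D box (CTGA, last occurrence), which proteins of the snoRNA particle bind. On the transcribed strand, 24% of 1507 annotated mouse snoRNA transcripts hold the C box followed by the D box. *Gm25878* (chr2:167063473-167063565) lies in intron 1, *Gm23201* (chr2:167064998-167065086) in intron 2 and *Snord12* (chr2:167065276-167065365) in intron 3. They are 93, 89 and 90 bases long.
Gm25878: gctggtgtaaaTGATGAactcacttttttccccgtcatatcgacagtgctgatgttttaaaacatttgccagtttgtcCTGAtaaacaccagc
Gm23201: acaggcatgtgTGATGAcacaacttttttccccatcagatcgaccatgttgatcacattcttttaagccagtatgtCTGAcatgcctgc
Snord12: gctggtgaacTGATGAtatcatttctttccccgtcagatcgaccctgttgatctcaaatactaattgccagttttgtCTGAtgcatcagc

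The boxes lie at nearly the same place in all 3, with the C box from base 12, 12 and 11 and the D box from base 79, 77 and 78. Each pair also shares a run of 11 or 12 bases. *Gm23201* and *Snord12* share tcagatcgacc, and *Gm25878* and *Gm23201* share acttttttcccc. The snoRNAs themselves were not analysed here, so the values below describe the host RNA.

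**Figure D1:**
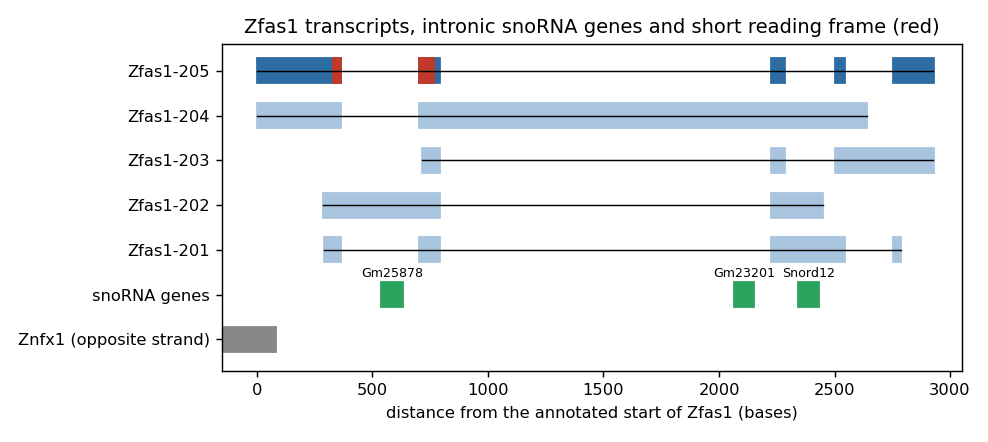
Annotated transcripts of *Zfas1* (blue boxes are exons), the 3 snoRNA genes (green) and the end of *Znfx1* on the opposite strand (grey), by distance in bases from the annotated start of *Zfas1*. The short reading frame (red) crosses the first junction of the 5-exon transcript, and each snoRNA gene lies in an intron of that transcript.

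*Upf3b*, the targeted gene, was the check of the treatment. In TPM, the deposited unit, in which the values of a library sum to a fixed total, it was 5.97, 20.7, 53.7, 3.95 and 23.3 in the 5 mice given *Upf3b*-GalNAc-ASO at 10 mg/kg and 9.37, 2.68, 2.57, 16.7 and 7.68 at 20 mg/kg. It was 27.1 to 78.7 TPM at 15 mg/kg and 85.3 to 135 TPM at 20 mg/kg of Control-GalNAc-ASO, and 33.8 to 136 TPM with a median of 103.8 in DPBS-treated mice. Every *Upf3b*-GalNAc-ASO mouse at 20 mg/kg was below every control mouse, and at 10 mg/kg replicate 3 (53.7 TPM) lay inside the ranges of DPBS and of the control ASO at 15 mg/kg. By limma, *Upf3b* fell by 3.87 ± 0.40 (SE) on the log2 scale at 20 mg/kg against Control-GalNAc-ASO (adjusted p = 1.59e-05). At 10 mg/kg against 15 mg/kg of control the difference was -1.73 ± 0.61 (adjusted p = 0.211), and against DPBS it fell by 2.57 ± 0.45 (adjusted p = 0.00455). In whole liver, fewer cells of a type and less RNA per cell cannot be told apart. The sequence listed by the study for its *Upf3b*-ASO without GalNAc, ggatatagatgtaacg, is shown to place its target. That the GalNAc form has the same sequence was taken as given and is not stated. Its 16 bases are complementary to a site in 1 annotated transcript, that of *Upf3b*. In the 5 *Zfas1* transcripts the nearest site has 5 mismatches, and the longest run of matching bases is 8.

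*Zfas1* was higher in each of the 10 *Upf3b*-GalNAc-ASO mice than in any of the 21 others. At 10 mg/kg it was 221, 114, 97.5, 312 and 241 TPM, and at 20 mg/kg it was 204, 162, 189.8, 181 and 294 TPM. The 4 mice given Control-GalNAc-ASO at 15 mg/kg had 90.1, 36.3, 30.3 and 23.4 TPM, and the 6 at 20 mg/kg had 35.7, 46.9, 50.5, 40.2, 26.8 and 81.3 TPM. DPBS-treated mice ran from 24.9 to 94.8 TPM with a median of 49.4. The gap between the sets was narrow, from 94.8 TPM in the highest DPBS mouse to 97.5 TPM in the lowest treated mouse. Of 9840 genes whose median reached 5 TPM in any group, 0.0203% were separated in this way. These were *Zfas1* and *Cblc*, which encodes a ubiquitin ligase of the Cbl family and was named after its values were seen. Of the treated mice described below, 2 were left out in a second count, the one with the fewest reads and the one most weighted to its 50 most abundant genes. Then 6 genes were separated, *Zfas1* among them. The highest DPBS mouse, replicate 6, was kept. It was also shallow, with about 1188083 reads, and had the fewest genes above 0 of all mice (10022).

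**Figure D2:**
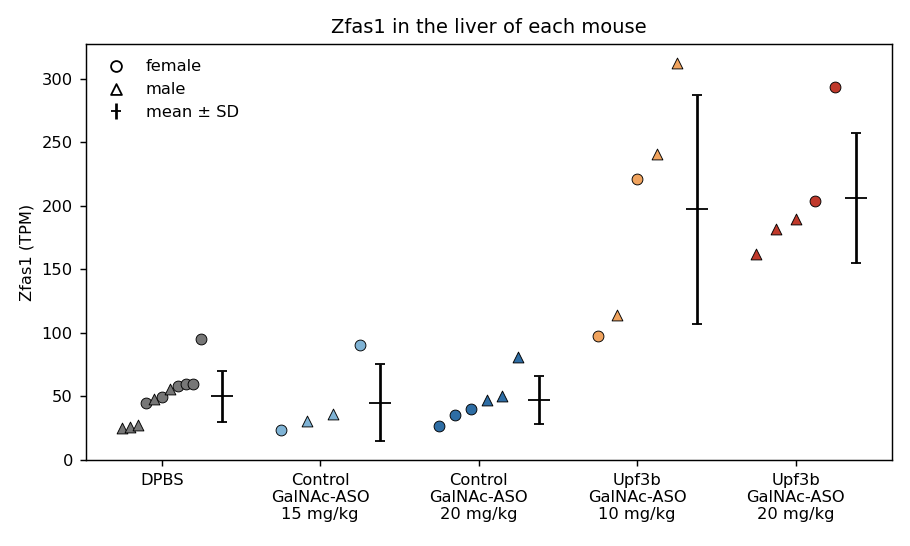
*Zfas1* in TPM in each of the 31 mice, by group (circles are females, triangles are males, bars give the mean ± SD of the group). The 10 *Upf3b*-GalNAc-ASO mice lie between 97.5 and 312 TPM and the 21 others between 23.4 and 94.8 TPM.

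The mean was 197 ± 90.2 TPM (SD, n = 5) at 10 mg/kg and 206 ± 51.3 TPM (SD, n = 5) at 20 mg/kg of *Upf3b*-GalNAc-ASO. It was 49.9 ± 20.0 TPM (SD, n = 11) with DPBS, 46.9 ± 18.8 TPM (SD, n = 6) with Control-GalNAc-ASO at 20 mg/kg and 45.02 ± 30.5 TPM (SD, n = 4) at 15 mg/kg. In this order, the first 2 groups did not differ beyond their spread and neither did the last 3, and the step lay between them. The level thus stood at 4.38 times that of the control ASO at the lower dose and at 4.39 times at 20 mg/kg, as ratios of means.

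At 20 mg/kg *Zfas1* rose against Control-GalNAc-ASO, by 2.14 ± 0.30 (SE) on the scale of log2(TPM + 1), with a 95% interval from 1.53 to 2.76 (limma, adjusted p = 0.000357). Of 9376 genes tested, 2.52% had an adjusted p under 0.05, 38 had a higher log2 fold change than *Zfas1* and 10 a smaller p. The groups did not overlap, as for 1.65% of the genes in this direction. The change was also past the study's thresholds, 2-fold and p ≤ 0.01 before adjustment, as for 2.36% of the genes upward. These thresholds were applied here to limma results, since the study's own test was not rerun. The exact two-sided permutation test of *Zfas1* alone gave p = 0.00216, the smallest that 462 splits of 5 and 6 mice allow (0.00866 after Benjamini-Hochberg adjustment over the 4 such tests run).

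At 10 mg/kg the difference from Control-GalNAc-ASO at 15 mg/kg was of the same size, 2.16 ± 0.45 (SE, 95% interval 1.19 to 3.13), but its adjusted p by limma was 0.0592. Of 9166 genes tested, 0.295% passed an adjusted p under 0.05, and 39 had a smaller p than *Zfas1*. The groups did not overlap, which held for 2.08% of the genes in this direction. The difference passed the study's thresholds, again applied to limma results, as did 2.56% of the genes upward. The exact two-sided permutation test gave p = 0.00794, the smallest that 126 splits of 5 and 4 mice allow (0.0159 after adjustment). The widest controls were at this dose, where replicate 1 had 90.1 TPM and the other mice at most 36.3 TPM. Without that control mouse the log2 fold change was 2.59 (adjusted p = 0.0443), without treated replicate 3 it was 2.46 (adjusted p = 0.00929), and without treated replicate 1 it was 2.05 (adjusted p = 0.0283). In the other 6 cases of 1 mouse left out it did not pass, with adjusted p from 0.085 to 0.24. The highest adjusted p was without control replicate 2, where the log2 fold change was 2.11, and the lowest fold change was without control replicate 4 (1.92, adjusted p = 0.169).

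Against DPBS, *Zfas1* rose at both doses. The log2 fold change was 1.98 ± 0.33 (SE) at 10 mg/kg (limma, adjusted p = 0.00231), where 0.376% of 9032 genes were called. It was 2.19 ± 0.25 (SE) at 20 mg/kg (limma, adjusted p = 1.56e-05), where 1.13% of 9078 genes were called and 5 had a smaller p. These comparisons share their DPBS mice with each other and their treated mice with those against the control ASO.

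The control ASO itself left *Zfas1* within the range of DPBS at both doses, apart from 1 mouse at 23.4 TPM that lay below it. The log2 fold change against DPBS was -0.21 ± 0.32 (SE, 95% interval -0.88 to 0.46) at 15 mg/kg (limma, adjusted p = 0.896) and -0.06 ± 0.29 (SE, 95% interval -0.65 to 0.53) at 20 mg/kg (adjusted p = 0.958). By limma 0% of the genes were called in either comparison, with 644 of 8971 and 905 of 9140 genes at an unadjusted p under 0.05. The exact permutation tests gave p = 0.544 and p = 0.81 (0.726 and 0.81 after adjustment).

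The effect at 20 mg/kg minus that at 10 mg/kg was -0.0036 ± 0.53 (SE) on the log2 scale (limma, adjusted p = 0.999). Its 95% interval ran from -1.09 to 1.08, so that a difference of up to about 2-fold between doses could not be seen. By limma 0% of 9797 genes were called for this difference, with 799 at an unadjusted p under 0.05. *Upf3b* differed by -2.12 ± 0.72 (SE, adjusted p = 0.455) in the same fit. The treated groups were not compared with each other directly.

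**Figure D3:**
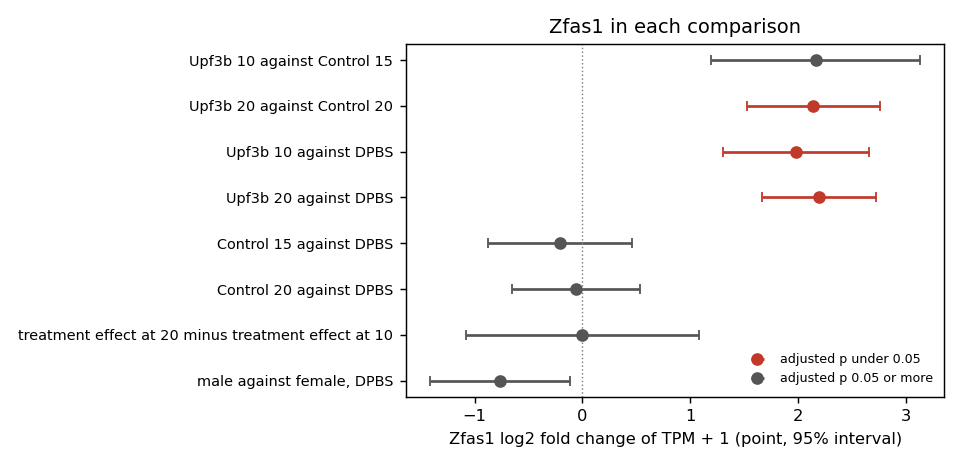
Log2 fold change of *Zfas1* (on TPM + 1) in each comparison, as estimate and 95% interval, with red for an adjusted p under 0.05 by limma. All 4 comparisons of *Upf3b*-GalNAc-ASO lie between 1.98 and 2.19, 3 of them called, and the others have intervals that reach 0 except males against females.

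Both sexes showed the separation. In females, *Zfas1* was 97.5 and 221 TPM at 10 mg/kg and 204 and 294 TPM at 20 mg/kg of *Upf3b*-GalNAc-ASO. The other females had 23.4 to 94.8 TPM. In males it was 114 to 312 TPM at 10 mg/kg and 162 to 189.8 TPM at 20 mg/kg, and the other males had 24.9 to 81.3 TPM. Among DPBS mice, females had 61.1 ± 17.6 TPM (SD, n = 6) and males 36.5 ± 14.4 TPM (SD, n = 5). The difference, males minus females, was -0.76 ± 0.31 (SE) on the log2 scale and did not pass (limma, adjusted p = 0.421), where 1.41% of 8998 genes did. In the Control-GalNAc-ASO mice at 20 mg/kg the order was the other way, with 34.2 ± 6.79 TPM (SD, n = 3) in females and 59.6 ± 18.9 TPM (SD, n = 3) in males, which was not tested.

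Within the 10 treated mice, *Zfas1* did not follow *Upf3b* closely. The mouse with the most *Upf3b* (53.7 TPM) had the least *Zfas1* (97.5 TPM), and the mouse with the most *Zfas1* (312 TPM) had 3.95 TPM of *Upf3b*. But the mice with the least *Upf3b*, 2.57 and 2.68 TPM, had 189.8 and 162 TPM of *Zfas1*, below the mean of their group. These 2 levels of *Upf3b* rested on about 6 and 14 reads, so that the lowest levels are poorly measured. On log2(TPM + 1) Pearson's r was -0.55 (permutation p = 0.112, adjusted p = 0.224) and Spearman's rho -0.32 (permutation p = 0.367, adjusted p = 0.367). Without the 2 mice farthest from the median of *Upf3b*, r was -0.33 over 8 mice. Over the 21 other mice r was -0.25 (permutation p = 0.269, adjusted p = 0.269) and rho -0.25 (permutation p = 0.283, adjusted p = 0.367), and without the 2 farthest r was -0.38 over 19 mice. These were the 2 relations tested, and no r was taken over all mice, which fall into separate clusters.

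**Figure D4:**
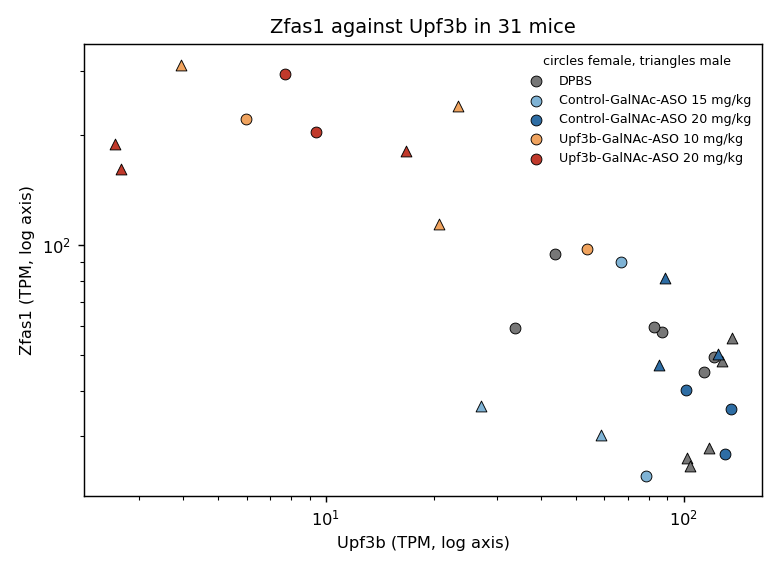
*Zfas1* against *Upf3b* in TPM, both on log axes, in 31 mice coloured by group. The 10 *Upf3b*-GalNAc-ASO mice lie above the others in *Zfas1*, and the one with 53.7 TPM of *Upf3b* lies nearest to them.

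Sequencing depth was not even. As scaled from the smallest step of the values, mice had 1012526 to 7334085 reads in genes, and *Zfas1* rested on 43 to 1439 reads. Replicate 3 at 10 mg/kg had the fewest reads of all, with about 100 of them on *Zfas1* and 55 on *Upf3b*, and the highest sum of 5 proliferation markers (637 TPM, against 13.1 to 158.7 TPM in the other 30 mice). The same sum was higher in all 5 mice of its group (38.7 to 637 TPM, median 101) than in the 4 controls at 15 mg/kg (17.2 to 37.1 TPM), and DPBS mice overlapped the treated mice (22.3 to 158.7 TPM). Replicate 2 at 20 mg/kg had 38.3% of its TPM in its 50 most abundant genes, against 26.3% to 33.2% in the other mice. Hepatocyte markers were abundant in every group, with a summed level of 7 genes from 16895 to 29575 TPM in treated mice and from 17476 to 39541 TPM in the others. Against the control ASO, 0 of the 7 were higher at 10 mg/kg (median log2 fold change -0.35) and 1 at 20 mg/kg (median -0.22). The medians of all genes were -0.03 and -0.12. Against DPBS 0 and 1 of the 7 were higher, and limma called 0 of them in these comparisons. The 4 endothelial markers summed to 1504 to 2192 TPM (median 1828) at 20 mg/kg of *Upf3b*-GalNAc-ASO and 558 to 1627 TPM (median 794) in its controls, with 583 to 2373 TPM (median 1054) in DPBS mice. At the lower dose they summed to 879 to 2188 TPM, against 562 to 1122 TPM in the controls at 15 mg/kg. Of 6 lymphocyte markers the sum was at most 41.1 TPM in any mouse, and 3 of them were at 0 in every mouse at 20 mg/kg of *Upf3b*-GalNAc-ASO. Cholangiocyte markers (4 genes) summed to 3.21 to 28.7 TPM except in replicate 2 at 20 mg/kg of *Upf3b*-GalNAc-ASO with 197.8 TPM, stellate cell markers (5 genes) to 65.8 to 229 TPM and Kupffer cell markers (4 genes) to 41.1 to 264 TPM. Tested at 10 and 20 mg/kg were 7 and 7 hepatocyte, 2 and 2 cholangiocyte, 3 and 2 stellate and 4 and 4 endothelial markers. The numbers were 3 and 3 for Kupffer cells, 2 and 0 for lymphocytes and 2 and 2 for proliferation. Against the control ASO limma called 0.295% and 2.52% of all genes at these doses. Of the tested markers, 1 rose in each comparison with the control ASO. At 10 mg/kg it was *Dlgap5*, a mitotic spindle protein, by 3.01 ± 0.54 (limma, adjusted p = 0.0295), and by 2.40 ± 0.41 without replicate 3 (adjusted p = 0.0093). For the higher dose it was *Pecam1*, an endothelial adhesion protein, by 1.27 ± 0.28 (adjusted p = 0.0201). The other 3 endothelial markers were lower there and not called, with *Stab2* at -0.08, *Clec4g* at -0.56 and *Kdr* at -0.72, and the median of the list was -0.32. Against DPBS, limma called 0 of the tested proliferation markers at 10 mg/kg and 0 of the tested endothelial markers at 20 mg/kg. Of all genes 0.376% and 1.13% were called there. *Dlgap5* without replicate 3 was at 0.23 ± 0.67 against DPBS (limma, adjusted p = 0.9996). The part of these cell markers in the level of *Zfas1* was not tested.

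*Znfx1* encodes a zinc finger helicase of the antiviral response and starts on the opposite strand, inside the first exon of *Zfas1*. How strand was resolved is not known beyond the automatic detection of the study's methods, so reads from the 82 shared bases could count for either gene. *Znfx1* was 14.5 to 42.1 TPM at 10 mg/kg and 4.80 to 42.5 TPM at 20 mg/kg of *Upf3b*-GalNAc-ASO. In the others it was 1.95 to 67.8 TPM, so all groups overlapped. Its log2 fold change against the control ASO was 1.11 ± 0.48 (SE) at 10 mg/kg (limma, adjusted p = 0.278) and -0.37 ± 0.51 (SE) at 20 mg/kg (adjusted p = 0.735).

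Of 11 other noncoding hosts listed, 2 had a row, *Snhg11* and *Snhg16*, the latter under its older symbol *1810032O08Rik*. *Snhg11* was 146.8, 285, 1442, 116.6 and 197.7 TPM at 10 mg/kg of *Upf3b*-GalNAc-ASO, 146.9 to 219 TPM at 20 mg/kg, 51.5 to 79.5 TPM and 66.0 to 152.6 TPM with the control ASO at 15 and 20 mg/kg, and 61.7 to 270 TPM with DPBS. The treated mice overlapped the DPBS mice. The log2 fold change was 2.08 ± 0.54 (SE) at 10 mg/kg (limma, adjusted p = 0.101) and 0.91 ± 0.27 (SE) at 20 mg/kg (adjusted p = 0.0778) against the control ASO, and 1.05 ± 0.46 and 0.33 ± 0.30 against DPBS (adjusted p = 0.573 and 0.713). Without replicate 3, the mouse at 1442 TPM, the value at 10 mg/kg was 1.397 ± 0.32 (limma, adjusted p = 0.0438) against the control ASO and 0.30 ± 0.35 against DPBS (adjusted p = 0.9996). *Snhg16* was near the limit of detection, at 0 to 6.47 TPM and 1.84 to 13.8 TPM in the treated groups and 0 to 5.74 TPM in the others. Its median reached 5 TPM in only 1 group, *Upf3b*-GalNAc-ASO at 10 mg/kg (5.20 TPM), so it was tested only at that dose. Passing the filter through the treated mice favoured a rise. The value (0.87 ± 0.79, limma, adjusted p = 0.602) is thus no support for one.

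Many protein-coding genes also host snoRNAs, among them genes of ribosomal proteins and translation factors. Of 20 listed, 18 were tested and 0 were called by limma in either comparison with the control ASO. Of all genes 0.295% were called at 10 mg/kg and 2.52% at 20 mg/kg, so that 0 of 18 is near these shares. The median log2 fold change of the 18 was -0.16 at 10 mg/kg, where that of all genes was -0.03. At 20 mg/kg it was 0.20, where that of all genes was -0.12. The largest differences at 10 mg/kg were in *Nop56*, a core protein of C/D box particles (1.76 ± 0.45, adjusted p = 0.0948), and *Eif4a1*, an RNA helicase of translation initiation (-1.25 ± 0.44, adjusted p = 0.206). At 20 mg/kg they were in *Rpl12* (0.95 ± 0.44, adjusted p = 0.254) and *Rpsa* (0.94 ± 0.26, adjusted p = 0.0527), both proteins of the ribosome. *Zfas1* lay above all 18 at both doses. Of 79 cytosolic ribosomal protein genes 73 were tested. Of these 0 were called at 10 mg/kg by limma (median -0.23), where the largest differences were in *Rpl12* (1.05 ± 0.54, adjusted p = 0.354) and *Rpl4* (-0.91 ± 0.43, adjusted p = 0.315). Of the same genes 2 rose at 20 mg/kg (median 0.38), *Rps19* by 1.02 ± 0.23 (limma, adjusted p = 0.0204) and *Rps14* by 1.002 ± 0.25 (adjusted p = 0.0352), where 2.52% of all genes were called in either direction. The largest difference, in *Rpl19*, was 1.59 ± 1.37 (adjusted p = 0.584). Against DPBS at 20 mg/kg, limma called 0 of the 73, where 1.13% of all genes were called.

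The core proteins of the C/D and H/ACA particles bind the snoRNAs that hosts release. Of 9 listed, 8 were tested and 0 were called by limma, with medians of 0.41 at 10 mg/kg and 0.31 at 20 mg/kg. With 0.295% and 2.52% of all genes called at these doses, 0 of 8 is near the share of all genes. *Nop56*, given above, and its partner *Nop58* (1.67 ± 0.45, adjusted p = 0.11) differed most at 10 mg/kg. The largest at 20 mg/kg were *Nhp2* (2.07 ± 0.66, adjusted p = 0.093) and *Gar1* (-0.60 ± 0.59, adjusted p = 0.621), both of the H/ACA particles, and *Fbl*, the methyltransferase of C/D particles, was at 0.58 ± 0.26 (adjusted p = 0.243).

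The NMD factors, several of which have transcripts that are NMD substrates, were tested in 11 of 12 cases. Against the control ASO 1 rose at 10 mg/kg, *Upf2*, by 2.39 ± 0.47 (limma, adjusted p = 0.0491), where 0.295% of all genes were called, and the median was 0.50. Against DPBS at the same dose 0 of the 11 rose, with a highest value of 1.47, and *Upf3b* fell. Without replicate 3, *Upf2* was at 1.99 ± 0.40 against the control ASO (adjusted p = 0.0228) and at 0.85 ± 0.47 against DPBS (adjusted p = 0.891). *Smg9*, a regulator of the kinase SMG1, was at 1.78 ± 0.50 (adjusted p = 0.128). Of the 11 tested, 1 fell at 20 mg/kg, *Upf3b* itself, where 2.52% of all genes were called. The median there was -0.48 and *Upf2* was at 0.66 ± 0.31 (adjusted p = 0.257). *Upf1* was at 1.53 ± 0.70 (adjusted p = 0.25) and *Smg1*, the kinase of UPF1, at -1.49 ± 0.57 (adjusted p = 0.166). *Upf3a*, the paralog of *Upf3b*, was at 0.92 ± 0.67 at 10 mg/kg and -0.48 ± 0.62 at 20 mg/kg (adjusted p = 0.516 and 0.719).

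Stress-response genes known as NMD substrates were tested in 4 of 7 cases at 10 mg/kg and 5 of 7 at 20 mg/kg, and 0 were called by limma. Their medians were -0.84 and 0.80. With 0.295% and 2.52% of all genes called at these doses, 0 of so few is near the share of all genes. *Ddit3*, a transcription factor of the unfolded protein response, was at -1.46 ± 0.84 and 1.53 ± 0.82 (adjusted p = 0.405 and 0.336). *Trib3*, a pseudokinase, was at -1.05 ± 0.72 at 10 mg/kg (adjusted p = 0.483), and at 20 mg/kg *Ifrd1*, a transcriptional regulator, was at 1.16 ± 0.52 (adjusted p = 0.25) and *Atf4*, a transcription factor of the integrated stress response, at 0.80 ± 0.25 (adjusted p = 0.0883).

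**Figure D5:**
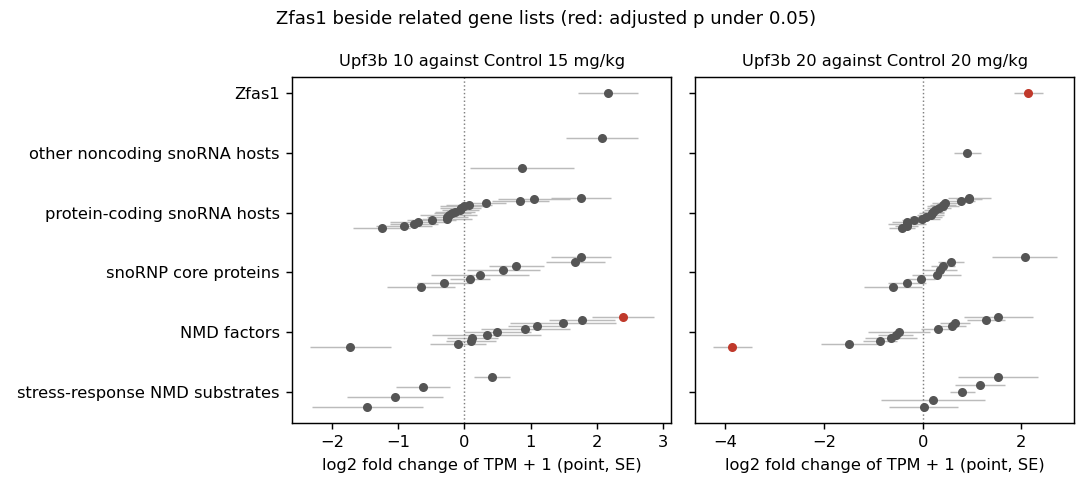
Log2 fold change (TPM + 1, point with SE) of each tested gene of 5 lists beside *Zfas1*, at 10 mg/kg against 15 mg/kg of control (left) and at 20 mg/kg (right), with red for an adjusted p under 0.05 by limma. *Zfas1* stands at 2.16 and 2.14, and the protein-coding hosts lie between -1.25 and 1.76 on the left and between -0.42 and 0.95 on the right.

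The genes whose level was most like that of *Zfas1* over the 31 mice, among 8502 whose median over all mice reached 5 TPM, were *Zbp1*, *Tstd1* and *Cacfd1*. Pearson's r on log2(TPM + 1) was 0.76, 0.75 and 0.69, as a description, since all 31 points share the step between treated and other mice. With each group set to its own mean, r was 0.35, 0.32 and 0.59. *Zbp1*, a sensor of Z-form nucleic acids, was 34.7 ± 20.0 TPM (SD, n = 5) and 45.5 ± 19.0 TPM (SD, n = 5) at 10 and 20 mg/kg of *Upf3b*-GalNAc-ASO, and 10.4 ± 5.71 TPM (SD, n = 11) with DPBS. It rose by 2.37 on the log2 scale at 20 mg/kg (limma, adjusted p = 0.0292), and its difference at 10 mg/kg was 2.11 (adjusted p = 0.0654). *Tstd1* was at 0.86 and 1.03 (adjusted p = 0.237 and 0.0536), and *Cacfd1* at 0.66 and 0.66 (adjusted p = 0.404 and 0.281).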

How the data were processed

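Liver RNA of 31 mice was sequenced, 1 library per mouse. Per the labels, libraries were made with a QuantSeq 3′ kit, while the study's methods name TruSeq. The authors quantified with Salmon 0.7.2 (submitters' processing notes, with bcl2fastq 2.17.1.14 and GRCm38.p4) against Ensembl cDNA and deposited TPM per gene symbol. Of 31198 symbols, 26 that had become dates were left out. In each mouse 62.4% to 81.5% of values were whole multiples of 1 step within 0.02 of a read (a median of 53.1% in genes under 1000 bases and 75.8% over 4000 bases), too few for a count test. Values divided by the length of each gene would not share 1 step. Most values thus appear hardly scaled by length, although deposited as TPM. Read numbers from the step are approximate, and 3 reads were 0.406 to 2.94 TPM, which covers counting error only. The labels call dosing weekly in one field and every 5 days in another.

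The main test was limma 3.58.1 (R 4.3.3, eBayes with trend and robust) on log2(TPM + 1) of the groups compared, with sex as covariate, for genes whose median reached 5 TPM in either group, with Benjamini-Hochberg adjustment over all genes tested. Fold changes on this scale understate those of low genes. Exact permutation tests and correlations used scipy 1.17.1 (100000 resamples for correlations). The script was tested on simulated data. The members and lists were chosen with earlier results of these data known. Of each list other than the markers, up to 4 of the members with the largest absolute change are named, and as likeness the 3 highest r. Of the marker lists, the called genes and the other endothelial genes are named, chosen after their values were seen. *Fbl*, *Upf3a*, *Rps14*, *Rps19* and *Cblc* were named after their values were seen, as was *Upf2* at 20 mg/kg. With 1 member, the members' median is the value of *Zfas1*. Mice are separate animals. Gene models and sequences came from GENCODE M21 (GRCm38), and the ASO without GalNAc from the study's supplement. Alternatives are given at the end.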

Additional observations from a re-analysis of the deposited data

Results flagged for a closer look

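*Snhg11* in replicate 3 of *Upf3b*-GalNAc-ASO at 10 mg/kg had 1442 TPM, far from the other mice of its group, whose highest value was 285 TPM. It was the 1 flagged case in 20 groups of 4 to 6 mice examined over 5 genes, and chance flags about 1 in 20. The same mouse had the fewest reads and the highest sum of proliferation markers, and its *Zfas1* (97.5 TPM) was the lowest of the treated mice.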

How the results depend on the processing

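Over 8 comparisons, 177 alternative values of the *Zfas1* log2 fold change were computed, of which 152 kept their direction and their side of an adjusted p of 0.05, 6 passed it, 2 no longer did and 17 changed sign, all of the last in comparisons not called. At 20 mg/kg all 22 values against the control ASO were called (1.92 to 2.33 with each mouse left out in turn), as were all 27 against DPBS (2.13 to 2.32). At 10 mg/kg against the control ASO, a pseudocount of 5 gave 2.05 (adjusted p = 0.0396) and all 31 mice in 1 fit gave 2.19 (adjusted p = 0.00259). Leaving out each mouse gave 1.92 to 2.59 (adjusted p 0.00929 to 0.24), with 6 of 9 values still above 0.05. In the mice with a partner there, the value was 2.06 with the replicate block (adjusted p = 0.0166) and without it (adjusted p = 0.174). Against DPBS at 10 mg/kg, leaving out each mouse gave 1.75 to 2.33, and the paired mice gave 2.12 with the replicate block (adjusted p = 0.0663) and without it (adjusted p = 0.0518), with fewer DPBS mice in the fit. Deviations of same-numbered treated and control ASO mice correlated at -0.39 to 0.07 at 10 mg/kg and -0.16 to 0.02 at 20 mg/kg. The pairs were few, sex was not adjusted for and DPBS mice were not examined. A link between same-numbered mice can thus not be excluded, and the numbers were treated as names only. In the mice with a partner, the block moved the count of called genes against the control ASO from 13 to 95 at 10 mg/kg and from 70 to 45 at 20 mg/kg. Keeping only mice with a partner had moved it from 27 to 13 and from 236 to 70.

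Against DPBS the control ASO gave -0.52 to 0.19 at 15 mg/kg and -0.26 to 0.12 at 20 mg/kg with each ASO mouse left out (DPBS mice were not left out there). The difference between doses changed sign with a pseudocount of 5 (0.012), median-of-ratios factors (0.10) and rescaling without the 50 most abundant genes (0.052), and ran from -0.45 to 0.23 with each mouse left out. Males minus females gave -0.93 to -0.63. The cause was not tested for any of these. Counts of called genes ran from 2 (without control replicate 3) to 431 (without treated replicate 1) around 27 at 10 mg/kg and from 45 to 304 around 236 at 20 mg/kg against the control ASO, from 9 to 62 around 34 and from 42 to 163 around 103 against DPBS. At 20 mg/kg against the control ASO, median-of-ratios factors moved the median of all genes from -0.12 to -0.0070 and the upward calls from 87 of 236 to 154 of 281. Leaving out replicate 3 at 10 mg/kg and replicate 2 at 20 mg/kg, chosen after seeing the data, raised the separated genes from 2 to 6. No depth beyond the read step is known, and the other 7 hosts were not analysed here.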
